A study of Homo sapiens with 12 samples.

Results

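Antigen presentation was followed through 9 genes in RD cells, an established human embryonal rhabdomyosarcoma line, on 12 Affymetrix arrays: HLA-B, HLA-C, HLA-E, B2M, TAP1, TAP2, PSMB8, PSMB9 and CIITA. They are read by the 21 probe sets whose array annotation gives 1 of these symbols and no other, out of 19065 probe sets for 11963 genes annotated with a single symbol. Of the 21 probe sets, 18 passed the filter on low signal, and each of the 9 genes had at least 1 among them. The 3 left out were TAP2 208428_at, CIITA 211884_s_at and CIITA 205101_at, whose highest signals on any array were 12.2, 44.1 and 10.9. PSMB8 has 1 probe set, which passed through the replicate 3 arrays alone.

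The study put PAX3-FKHR-ER, the fusion protein of alveolar rhabdomyosarcoma with an altered ligand binding domain of the estrogen receptor attached, into RD cells, and used the empty pK1 vector as the control. Cells carrying either construct were grown without or with 4-hydroxytamoxifen (4-OHT), a ligand of that receptor domain, at 30 nM for 24 h. Each of the 4 groups has 3 arrays, numbered 1 to 3, and the series' design text speaks of 3 populations of cells per construct. All 4 groups are labelled RD cells and all carry a transduced construct, so no untransduced cells were compared. RD is a single tumour line, and the p-values measure the spread between these samples of it.

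Class I molecules display peptides from inside the cell to CD8 T cells, and natural killer cells read their presence. A heavy chain, such as HLA-B, HLA-C or the less variable HLA-E, pairs with the light chain B2M and a peptide in the endoplasmic reticulum. The peptide is cut by the proteasome, in which PSMB8 and PSMB9 replace constitutive catalytic subunits, and is carried across the membrane by the TAP1 and TAP2 transporter. CIITA is the coactivator that switches on class II genes and also acts on class I promoters. Tumour cells of many kinds carry little class I on their surface, and interferons raise most of these genes together.

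Because the heavy chains, the light chain and the transporter are compared below, the 250 bases before the start of each of 4 of these genes are printed first, from RefSeq on GRCh38, 5′ to 3′ on the gene's strand. Capitals mark the interferon-stimulated response element core (GAAA, any 2 bases, GAAA), the interferon regulatory factor core GAANNGAAA, the CCAAT box and the kappa B motif, searched on both strands.
HLA-B, chr6:31357180-31357429, minus strand: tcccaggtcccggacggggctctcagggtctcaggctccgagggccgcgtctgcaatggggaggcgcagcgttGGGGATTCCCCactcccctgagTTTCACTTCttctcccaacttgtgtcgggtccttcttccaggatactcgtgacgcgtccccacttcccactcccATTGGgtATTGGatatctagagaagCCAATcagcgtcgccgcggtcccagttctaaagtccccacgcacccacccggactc
HLA-C, chr6:31272093-31272342, minus strand: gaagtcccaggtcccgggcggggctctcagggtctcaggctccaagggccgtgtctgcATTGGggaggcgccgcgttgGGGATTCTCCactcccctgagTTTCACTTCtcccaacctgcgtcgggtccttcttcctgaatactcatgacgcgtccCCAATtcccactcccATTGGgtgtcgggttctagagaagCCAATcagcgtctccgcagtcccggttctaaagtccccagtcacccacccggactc
B2M, chr15:44711267-44711516, plus strand: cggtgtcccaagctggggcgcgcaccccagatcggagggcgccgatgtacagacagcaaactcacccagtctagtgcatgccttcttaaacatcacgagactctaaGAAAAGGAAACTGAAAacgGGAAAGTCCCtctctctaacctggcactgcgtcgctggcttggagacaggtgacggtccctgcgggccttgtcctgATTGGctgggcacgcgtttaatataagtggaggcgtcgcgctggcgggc
TAP1, chr6:32853705-32853954, minus strand: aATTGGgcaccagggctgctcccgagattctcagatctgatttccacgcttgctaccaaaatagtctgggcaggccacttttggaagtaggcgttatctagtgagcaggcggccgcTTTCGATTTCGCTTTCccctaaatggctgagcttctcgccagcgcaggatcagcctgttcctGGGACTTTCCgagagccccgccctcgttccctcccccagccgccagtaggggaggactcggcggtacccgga

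These letters show that the heavy chain promoters resemble each other. In the HLA-B and HLA-C windows, 226 of 254 aligned columns (89.0%) are identical. Both windows carry the interferon regulatory factor core, starting at -155 in HLA-B and -151 in HLA-C counted from the gene's start, with a kappa B motif upstream of it. B2M has 2 overlapping copies of the response element core, starting at -144 and -138, and so has TAP1, at -134 and -128. TAP2 has both cores, overlapping one another.

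Promoters were in the table for 7 of the 9 genes, HLA-E and CIITA being the others, and PSMB8 and TAP1 each have 2 windows. The response element core was found in 3 of the 7 genes, against 3.07% of 27305 promoters of the same length. For the interferon regulatory factor core the numbers are 3 of 7 and 6.77%, and for kappa B 4 of 7 and 9.57%. The CCAAT box was in 5 of 7, against 33.0%, and the letters TGACG, a CRE half-site that is not capitalised, in 6 of 7, against 21.7%. TAP1 and PSMB9 are read in opposite directions from starts 487 bases apart, so these neighbours share upstream sequence and do not count as independent. A match is a stretch of letters and not a measured binding site.

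The 4 arrays of replicate 1 stood apart from the other 8, so results are given with and without them. Their poly-A spike-in control probe sets had a median signal of 2.58 to 7.41, against 118 to 291 on the arrays of replicates 2 and 3, while the median signal of all probe sets was alike (50.8 to 58.4 and 50.4 to 62.8). The arrays labelled replicate 1 also did not bear out their labels at the construct. Without 4-OHT, PAX3 207680_x_at read 17.6 in PAX3-FKHR-ER and 49.4 in pK1, whereas in replicates 2 and 3 it read 98.9 and 105 against 41.5 and 30.6. A direction taken from replicate 1 is therefore that of libraries labelled PAX3-FKHR-ER or pK1. A second departure lay in the pK1 arrays of replicate 2, whose summed signal over the muscle markers MYOD1, MYOG, DES, MYF5, CHRNA1 and CDH15 was 779 without and 647 with 4-OHT, against 2728 to 5211 on the other 10 arrays. On this list the RD label was therefore less well borne out in those 2 arrays, although MYOD1 still read 222 and 197 there. Those 2 arrays also had the highest HLA-B and HLA-C signals of the series. Of 9 leukocyte markers with a probe set 3 passed the filter, CD3E (17 to 96.8), MS4A1 (18.9 to 74) and FCER1G (28.4 to 104). Of those below it, PTPRC, CD14 and LYZ were at or below 23.5, 20.6 and 2.39 on all arrays. CSF1R, CD79A and ITGAX, also below it, reached 81.3, 50.5 and 28.1. The summed signal of the leukocyte list was 195 to 381 in PAX3-FKHR-ER and 202 to 317 in pK1. Of 4 endothelial markers 2 passed the filter, PECAM1 (8.08 to 84.3) and TEK (3.19 to 144). VWF and CDH5 did not, and reached 55.8 and 4.03.

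HLA-B had lower signals in PAX3-FKHR-ER than in pK1 in every same-numbered pair of arrays. Values are the deposited linear array signals, and a signal compares arrays for 1 probe set, not 1 gene with another. For its brightest probe set, 209140_x_at, the PAX3-FKHR-ER arrays without 4-OHT read 124, 309 and 525 in replicates 1, 2 and 3. The matching pK1 arrays read 152, 1865 and 1286. With 4-OHT the signals were 141, 199.9 and 421 in PAX3-FKHR-ER and 262, 1675 and 1104 in pK1. In replicates 2 and 3 the constructs did not overlap, with means without 4-OHT of 417 ± 153 and 1576 ± 409 (SD, n = 2). In replicate 1 all 4 signals were low, at 124 to 262.

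The other HLA-B probe sets gave the same order. 211911_x_at read 299 and 333 in PAX3-FKHR-ER and 977 and 753 in pK1 in replicates 2 and 3 without 4-OHT, and 208729_x_at read 174 and 224 against 741 and 425. In these probe sets replicate 1 was again low, at 141 against 195 and at 79.5 against 89.5. On the log2(signal + 16) scale, which understates differences of dim probe sets, the HLA-B construct difference of 209140_x_at was -0.26, -2.53 and -1.27 in replicates 1, 2 and 3 without 4-OHT. With 4-OHT it was -0.83, -2.97 and -1.36. The order was thus shared by all 6 pairs, and its size was largest in replicate 2. Arrays of the same construct and number deviated together without and with 4-OHT. The 6 pairs are therefore not independent comparisons.

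HLA-C, the other classical heavy chain here, showed the same order. The probe set 216526_x_at read 230.4, 329.6 and 613 in PAX3-FKHR-ER and 363, 2372 and 1263 in pK1 without 4-OHT. With 4-OHT it read 266, 278 and 457 against 440.1, 2303 and 1265. Each PAX3-FKHR-ER array was below its same-numbered pK1 array, and the log2 differences were -0.62, -2.79 and -1.02 without and -0.69, -2.98 and -1.44 with 4-OHT. 208812_x_at and 214459_x_at were also lower in all 6 pairs. The dimmest HLA-C probe set, 211799_x_at, read 20.0, 80.1 and 63.6 against 13.2, 357 and 86.9 without 4-OHT, so replicate 1 went the other way. Probe sets ending in _x_at can bind several related transcripts, and HLA-B and HLA-C share much sequence, so the 7 probe sets are not independent and their assignment to 1 gene is uncertain.

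HLA-E presents peptides cut from other class I leaders to receptors of natural killer cells. The brightest HLA-E probe set, 200905_x_at, read 112, 172 and 109.5 in PAX3-FKHR-ER and 178, 347 and 247 in pK1 without 4-OHT. With 4-OHT the signals were 125, 258 and 159.6 against 239, 380.3 and 232. Every pair had the lower value in PAX3-FKHR-ER, with log2 differences of -0.60, -0.95 and -1.07 without and -0.86, -0.53 and -0.50 with 4-OHT. The signal of 172 in replicate 2 of PAX3-FKHR-ER lay just under the 178 of pK1 replicate 1, and with 4-OHT its 258 was above the pK1 signals of replicates 1 and 3, so the groups overlapped there. 217456_x_at was lower in the same 6 pairs, by -1.22 in replicate 2 without 4-OHT and by less than 200905_x_at in the other 5, and the dim 200904_at was lower in the 3 pairs without 4-OHT.

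**Figure D1:**
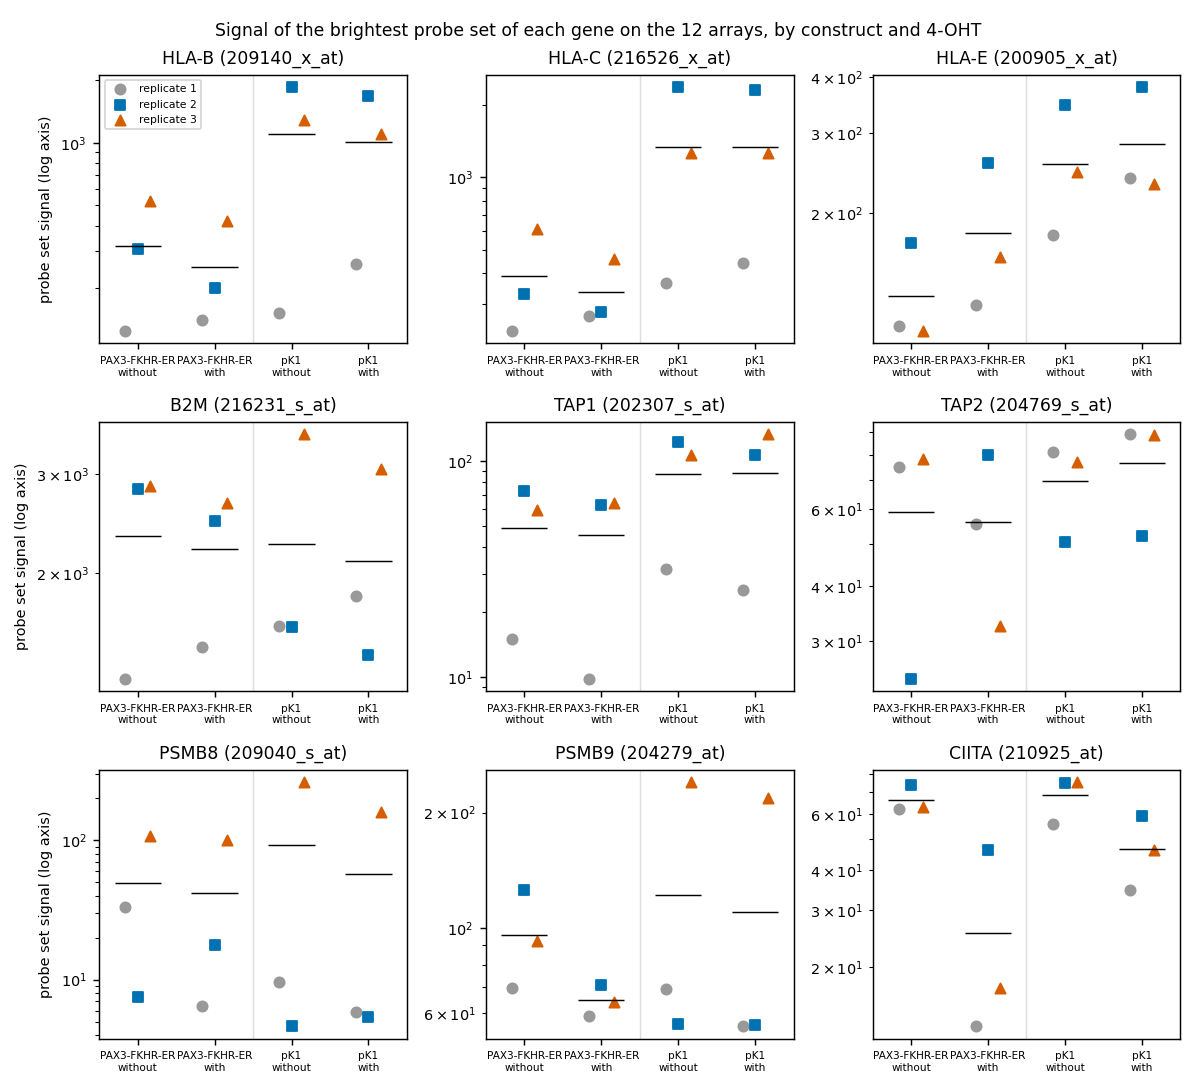
Signal of the brightest probe set of each of the 9 genes on the 12 arrays, on a log axis, by group. Markers show the replicate number and the line is the mean of 3 arrays. HLA-B and HLA-C are highest on the pK1 arrays of replicates 2 and 3, from 1104 to 2372, and B2M lies between 1295 and 3529 on all arrays.

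limma was fitted over all 13329 probe sets that passed the filter, on 12 arrays without a block and on replicates 2 and 3 with a block. In this block fit, construct differences had the replicate number as the block, which left 3 residual degrees of freedom. The 4-OHT changes and their difference between the constructs had separate blocks for each construct within a number, which left 2. The threshold was a Benjamini-Hochberg adjusted p under 0.05. No member passed it for a construct difference in either fit. For these differences, arrays of the same construct and number without and with 4-OHT were treated as independent. The errors of the construct differences can therefore be too small. The whole table had few calls. Among all probe sets tested, the block fit called 1 (0.0075%) without and 21 (0.158%) with 4-OHT. The 12-array fit called 0 (0.0%) in each, with 277 and 267 probe sets at an unadjusted p under 0.05. In the block fit HLA-B 209140_x_at differed by -1.90 ± 0.42 (SE, limma adjusted p = 0.315) without and -2.16 ± 0.42 (adjusted p = 0.136) with 4-OHT. HLA-C 216526_x_at differed by -1.91 ± 0.48 (limma adjusted p = 0.351) and -2.21 ± 0.48 (adjusted p = 0.161). Among the 18 members, HLA-E 200905_x_at without 4-OHT had the smallest unadjusted p, with -1.01 ± 0.19 (limma adjusted p = 0.297), and with 4-OHT it had -0.52 ± 0.19 (adjusted p = 0.326).

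On 12 arrays the differences of HLA-B 209140_x_at were -1.35 ± 0.92 (SE) without and -1.72 ± 0.92 with 4-OHT, smaller relative to their errors. Those of HLA-C 216526_x_at were -1.48 ± 0.69 and -1.70 ± 0.69, and those of HLA-E 200905_x_at -0.87 ± 0.32 and -0.63 ± 0.32. Leaving out the pK1 array of replicate 2 without 4-OHT, low in muscle markers, the block fit gave -1.44 for HLA-B, -1.34 for HLA-C and -1.09 for HLA-E without 4-OHT. Leaving out the other low array, pK1 replicate 2 with 4-OHT, it gave -1.66 for HLA-B, -1.67 for HLA-C and -0.46 for HLA-E with 4-OHT. Each of these fits kept the other low array, so neither was free of both. In replicate 3 alone the differences without 4-OHT were -1.27 for HLA-B, -1.02 for HLA-C and -1.07 for HLA-E. With 4-OHT they were -1.36, -1.44 and -0.50. In these bulk RNA samples, fewer cells making a transcript and less transcript per cell cannot be told apart. The part of the muscle marker difference in these values was not tested.

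**Figure D2:**
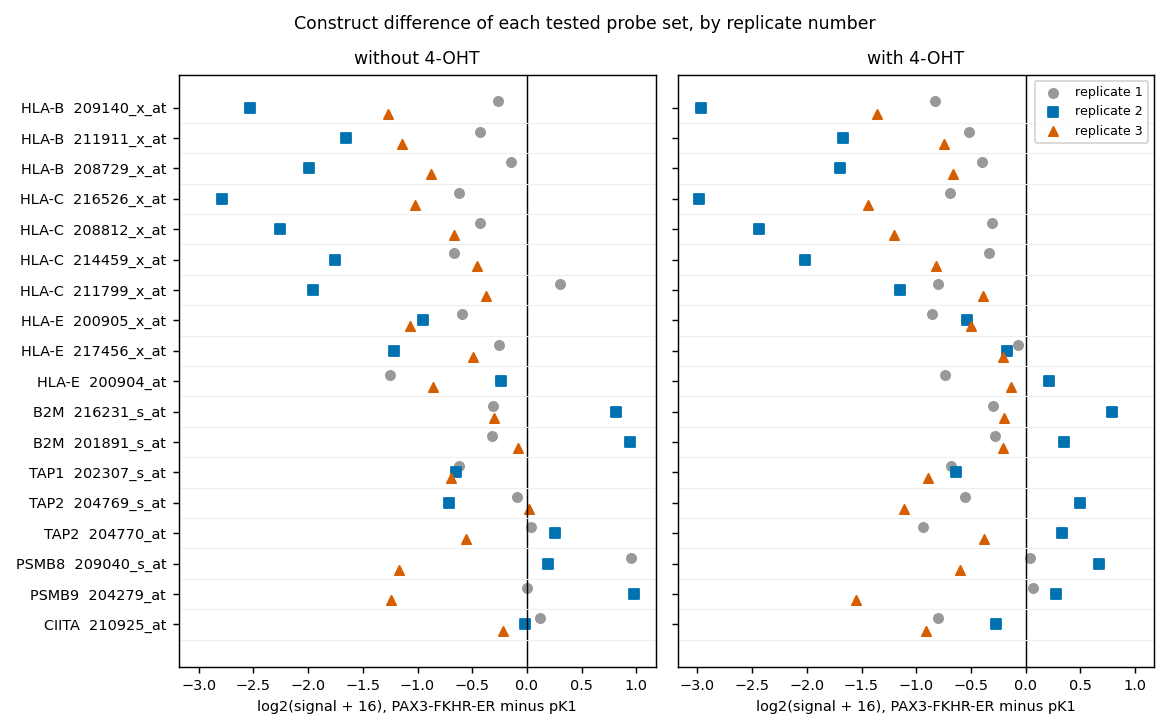
PAX3-FKHR-ER minus pK1 on the log2(signal + 16) scale for the 18 probe sets tested, without 4-OHT and with 4-OHT, with 1 marker per replicate number. Values below 0 are lower in PAX3-FKHR-ER, and the HLA-B and HLA-C probe sets lie lowest in replicate 2, down to -2.98.

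The light chain B2M did not follow the heavy chains. Its brightest probe set, 216231_s_at, read 1295, 2822 and 2858 in PAX3-FKHR-ER and 1608, 1602 and 3529 in pK1 without 4-OHT. With 4-OHT it read 1477, 2474 and 2663 against 1815, 1428 and 3063. PAX3-FKHR-ER was lower in replicates 1 and 3 and higher in replicate 2, so the groups overlapped. In the block fit the B2M difference was 0.25 ± 0.32 (SE, limma adjusted p = 0.826) without and 0.29 ± 0.32 (adjusted p = 0.738) with 4-OHT. The probe set 201891_s_at had the same order, with 1363, 2935 and 2521 against 1707, 1520.2 and 2665 without 4-OHT. In replicate 2, then, the pK1 arrays with the highest heavy chain signals had the lowest B2M signals of replicates 2 and 3.

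The peptide transporter was represented by TAP1 and TAP2, which form 1 complex. TAP1 202307_s_at read 15.1, 72.8 and 59.7 in PAX3-FKHR-ER and 31.7, 123 and 106 in pK1 without 4-OHT. With 4-OHT it read 9.84, 62.9 and 64.3 against 25.5, 107 and 133.2. TAP1 was lower in PAX3-FKHR-ER in all 6 pairs, by -0.62, -0.65 and -0.69 without and -0.68, -0.64 and -0.89 with 4-OHT on the log2 scale, a narrower range than that of HLA-B or HLA-C. The block fit gave -0.67 ± 0.24 (SE, limma adjusted p = 0.453) and -0.76 ± 0.24 (adjusted p = 0.263). TAP2 showed no such order. TAP2 204769_s_at read 74.8, 24.6 and 78.3 in PAX3-FKHR-ER and 80.9, 50.6 and 77.1 in pK1 without 4-OHT, and 204770_at read 59.9, 82.5 and 36.5 against 58.2, 66.3 and 61.2. Their block-fit differences without 4-OHT were -0.35 ± 0.50 (SE, limma adjusted p = 0.858) and -0.15 ± 0.32 (adjusted p = 0.917).

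The immunoproteasome subunits had no common order between the constructs. PSMB8 209040_s_at read 33.3, 7.56 and 108 in PAX3-FKHR-ER and 9.54, 4.62 and 263 in pK1 without 4-OHT. With 4-OHT the signals were 6.45, 17.9 and 100.2 against 5.85, 5.35 and 159.7. The 4 arrays of replicate 3 were thus at 100.2 or above and the other 8 at 33.3 or below. PSMB9 204279_at, whose gene lies beside TAP1, read 69.5, 126 and 92.2 in PAX3-FKHR-ER and 69.2, 56 and 241 in pK1 without 4-OHT. With 4-OHT it read 58.8, 70.9 and 64.1 against 55.3, 55.7 and 218. The 2 pK1 arrays of replicate 3 stood above all others, and in replicate 2 the order was the opposite. The PSMB9 construct difference in the block fit was -0.13 ± 0.59 (SE, limma adjusted p = 0.960) without and -0.63 ± 0.59 (adjusted p = 0.695) with 4-OHT.

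CIITA signals overlapped between the constructs without 4-OHT. Its probe set 210925_at read 61.9, 73.5 and 62.8 in PAX3-FKHR-ER and 55.9, 74.6 and 75.4 in pK1. With 4-OHT it read 13.1, 46.2 and 17.1 against 34.6, 59 and 46.2, lower than without in all 6 pairs. The construct difference was -0.12 ± 0.31 (SE, limma adjusted p = 0.934) without and -0.59 ± 0.31 (adjusted p = 0.472) with 4-OHT in the block fit. The CIITA probe sets below the filter did not show this order, and 211884_s_at read 32.3, 5.7 and 31.6 without and 15.4, 44.1 and 33.4 with 4-OHT in PAX3-FKHR-ER. Among the class II genes, which CIITA switches on, HLA-DRA 208894_at ranged from 6.58 to 25.8 and CD74 209619_at, the invariant chain, from 1.99 to 37.6, both below the filter, as were HLA-DQA1 and HLA-DOB. Others passed it, among them HLA-DRB1 208306_x_at, with 44.9 to 94.9, and HLA-DOA 217001_x_at, with 55.4 to 169. HLA-DPA1 211990_at read 239.7 and 224 on the pK1 arrays of replicate 2 and at most 22.3 on the other 10.

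Counted over the 18 tested members, 16 construct differences were below 0 without 4-OHT in the block fit, against 47.9% of all probe sets tested, and 14 with 4-OHT, against 48.2%. The members' median differences were -0.76 and -0.61, and those of all probe sets were 0.02 in both. At an unadjusted p under 0.05, 10 members were lower without 4-OHT and 8 with it, where 4.79% and 6.09% of all probe sets were lower at that level. In the 12-array fit the counts were 2 and 2, against 1.08% and 0.863%, and with the replicate number as a block on the 12 arrays they were 9 and 9, against 3.62% and 3.26%. The 7 heavy chain and transporter probe sets made up of 3 of HLA-B, 3 of HLA-C and TAP1 had all 4 PAX3-FKHR-ER arrays of replicates 2 and 3 below all 4 pK1 arrays, which 6.62% of all probe sets did. Over all 12 arrays no member had every PAX3-FKHR-ER array below every pK1 array, and 0.203% of all probe sets did. PAX3-FKHR-ER was below the same-numbered pK1 array in all 3 pairs for 10 members without 4-OHT (13.3% of all probe sets) and for 11 with it (9.88%). In all 6 pairs it held for 9 members (3 of HLA-B, 3 of HLA-C, 2 of HLA-E and TAP1) and for 3.34% of all probe sets. A log2 difference under -1 in both replicates 2 and 3 was found in 3 members without 4-OHT (HLA-B 209140_x_at and 211911_x_at and HLA-C 216526_x_at), against 0.563%, and in 3 with it (HLA-B 209140_x_at and HLA-C 216526_x_at and 208812_x_at), against 0.668%. Heavy chain probe sets share sequence, so these are not counts of independent genes. Same-numbered pairs without and with 4-OHT are not independent either, and the errors behind the unadjusted p-values can be too small. The members and replicates 2 and 3 were also chosen with earlier results of these data known. The counts and shares therefore describe these arrays and are no independent test of the members.

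The change with 4-OHT asks what activating the fusion did within a construct, with pK1 as the background for the ligand itself. In the block fit, here with separate blocks for each construct within a number, 186 of 13329 probe sets (1.40%) were called in PAX3-FKHR-ER. No member was among them. None was called in pK1 (0.0%), where 760 had an unadjusted p under 0.05, and 7 (0.0525%) were called for the difference between the constructs, again with no member. In the 12-array fit no probe set was called in any of these comparisons, with 62, 72 and 39 at an unadjusted p under 0.05. The members' median change was -0.10 in PAX3-FKHR-ER and -0.18 in pK1 in the block fit, against -0.02 and -0.01 over all probe sets. At an unadjusted p under 0.05, 6 members were lower with 4-OHT in PAX3-FKHR-ER, where 6.39% of all probe sets were lower at that level. At the same level 2 members, both of HLA-E, were higher, as were 5.45% of all probe sets. The choice of members and replicates with earlier results known limits these counts too.

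In PAX3-FKHR-ER, CIITA had the lowest log2 difference with 4-OHT of the 18 members in both fits. Its pairs differed by -1.42, -0.53 and -1.25, and in pK1 by -0.51, -0.27 and -0.55. The larger changes, in replicates 1 and 3 of PAX3-FKHR-ER, ended at signals of 13.1 and 17.1. Those are under the 36.7 that the filter asked of a mean signal. Mean signals were 66.1 ± 6.46 without and 25.5 ± 18.1 with 4-OHT (SD, n = 3) in PAX3-FKHR-ER, and 68.6 ± 11.1 and 46.6 ± 12.2 in pK1. The 12-array fit gave -1.07 ± 0.30 (SE, limma adjusted p = 1.0) in PAX3-FKHR-ER, and the block fit -0.89 ± 0.26 (adjusted p = 0.176). In pK1 the block fit gave -0.41 ± 0.26 (SE, limma adjusted p = 0.883), and the difference between the constructs was -0.47 ± 0.36 (adjusted p = 0.731). All 6 pairs were lower with 4-OHT, also for PSMB9 204279_at and TAP2 204770_at, a pattern that 2.96% of all probe sets had.

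PSMB9 differed with 4-OHT by -0.19, -0.71 and -0.43 in the PAX3-FKHR-ER pairs and by -0.26, -0.01 and -0.13 in the pK1 pairs. Its block-fit values were -0.57 ± 0.18 (SE, limma adjusted p = 0.224) and -0.07 ± 0.18 (adjusted p = 0.972). TAP2 204770_at differed by -1.03, -0.34 and -0.19 in PAX3-FKHR-ER and by -0.06, -0.41 and -0.37 in pK1, so its pairs overlapped between the constructs.

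The brighter HLA-E probe sets had higher signals with 4-OHT in PAX3-FKHR-ER, and the dim 200904_at was higher in replicates 1 and 2 but not in 3. In those pairs 200905_x_at differed by 0.13, 0.54 and 0.48 and 217456_x_at by 0.30, 0.73 and 0.27, both higher with 4-OHT in all 3 pairs, as were 13.2% of all probe sets. In pK1 200905_x_at differed by 0.39, 0.13 and -0.08. The block fit gave 0.51 ± 0.14 (SE, limma adjusted p = 0.153) in PAX3-FKHR-ER and 0.02 ± 0.14 (adjusted p = 0.988) in pK1 for that probe set. The difference between the constructs was 0.49 ± 0.20 (SE, limma adjusted p = 0.466) for it and 0.67 ± 0.25 (adjusted p = 0.425) for 217456_x_at. HLA-B 209140_x_at differed by 0.17, -0.59 and -0.31 in the PAX3-FKHR-ER pairs, and the block fit gave -0.45 ± 0.12 (SE, limma adjusted p = 0.155). HLA-C 214459_x_at differed by 0.16, -0.56 and -0.35 in those pairs and had -0.46 ± 0.13 (limma adjusted p = 0.168) in that fit. When any 1 of the 4 pK1 arrays was left out, both passed the threshold, with adjusted p from 0.0464 to 0.0482 for HLA-B and from 0.0334 to 0.0368 for HLA-C, while the probe sets called over the table went from 186 to between 479 and 526. The other HLA-B probe sets, 211911_x_at and 208729_x_at, had -0.06 ± 0.13 and -0.02 ± 0.13 (SE) with 4-OHT. The brightest HLA-C probe set, 216526_x_at, differed by 0.20, -0.24 and -0.41 in the PAX3-FKHR-ER pairs. There 208812_x_at differed by 0.46, 0.03 and -0.40, and 211799_x_at by -0.25, 0.38 and -0.19. The HLA-C probe sets thus did not share a direction in every pair.

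**Figure D3:**
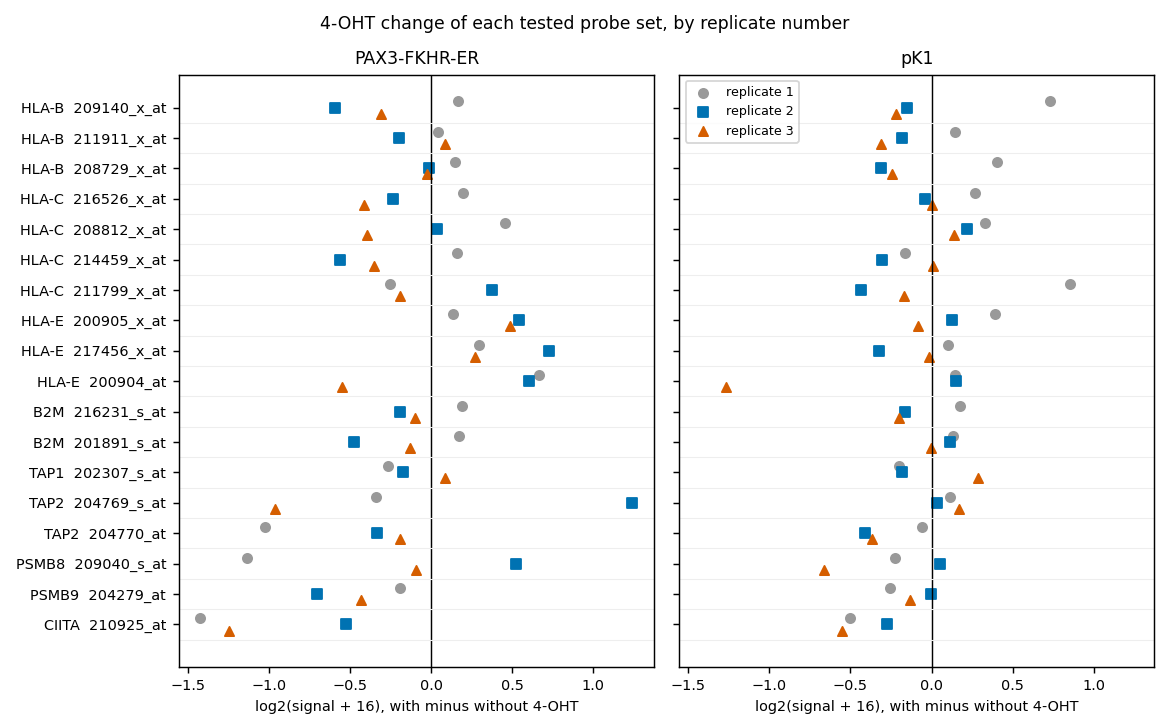
Change with 4-OHT on the log2(signal + 16) scale for the 18 probe sets tested, in PAX3-FKHR-ER and in pK1, with 1 marker per pair of arrays sharing a replicate number. CIITA 210925_at lies below 0 in all 6 pairs, down to -1.42, and HLA-E 200905_x_at lies above 0 in the 3 PAX3-FKHR-ER pairs.

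Genes that work beside the members were taken from fixed lists, each by its brightest probe set. Of 10 other class I and peptide loading genes, none passed the test in any comparison. Without 4-OHT 6 of the 10 were lower in PAX3-FKHR-ER in the block fit, with a median of -0.27. The nonclassical heavy chains HLA-F and HLA-G had -0.77 ± 0.21 (SE, limma adjusted p = 0.376) and -0.89 ± 0.22 (adjusted p = 0.351), and their _x_at probe sets can also bind HLA-B or HLA-C transcripts. PDIA3, a thiol oxidoreductase of the loading complex, had 0.61 ± 0.20 (limma adjusted p = 0.419), and read 1239 and 1180.2 in PAX3-FKHR-ER against 636 and 970.2 in pK1 in replicates 2 and 3. With 4-OHT in PAX3-FKHR-ER the smallest p-values of that list were those of CALR, a chaperone of the heavy chain, at -0.40 ± 0.14 (limma adjusted p = 0.311), and HFE at 0.38 ± 0.18 (adjusted p = 0.460).

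The 13 proteasome counterparts and activators also had no call. Their median construct difference in the block fit was 0.22 without and 0.08 with 4-OHT, with 10 of 13 above 0 in each. PSMB10, the third inducible catalytic subunit, had -0.61 ± 0.30 (SE, limma adjusted p = 0.560) without 4-OHT, and POMP, a proteasome assembly factor, 0.38 ± 0.19 (adjusted p = 0.560). Of 16 class II genes and their factors none was called, and the smallest p-values without 4-OHT were those of NFYB, a subunit of the CCAAT-binding factor, at -0.51 ± 0.20 (limma adjusted p = 0.492), and CTSL, a lysosomal protease, at -0.56 ± 0.33 (adjusted p = 0.598).

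Among 17 interferon signalling genes and regulators, 15 were below 0 for the construct difference in the block fit both without and with 4-OHT, with medians of -0.34 and -0.24, and none was called. IRF9, the DNA-binding part of the interferon-stimulated complex, read 98.1, 64.5 and 91.9 in PAX3-FKHR-ER and 109, 132 and 203 in pK1 without 4-OHT. With 4-OHT it read 118, 99.2 and 111 against 139, 99.4 and 150. Without 4-OHT it was lower in all 3 replicates, as were 13.3% of all probe sets. The block fit without 4-OHT gave -0.95 ± 0.22 (SE, limma adjusted p = 0.329). IFNGR2, a chain of the interferon gamma receptor, had -0.62 ± 0.22 (limma adjusted p = 0.461), and JAK1, a kinase of those receptors, had -0.52 ± 0.20 (adjusted p = 0.472). With 4-OHT in PAX3-FKHR-ER, SOCS1, an inhibitor of that signalling, had 0.70 ± 0.22 (limma adjusted p = 0.220), and IRF2, a regulator that binds the same elements, -0.65 ± 0.22 (adjusted p = 0.265).

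For scale, muscle lineage markers gave calls in the block fit. MYOG, a muscle differentiation factor, fell with 4-OHT in PAX3-FKHR-ER from 298 and 172 to 20.8 and 19.7 in replicates 2 and 3, by -2.74 ± 0.25 (SE, limma adjusted p = 0.00327). MYOD1 was higher in PAX3-FKHR-ER than in pK1 with 4-OHT by 2.80 ± 0.29 (SE, limma adjusted p = 0.0385), at 1912 and 1809 against 197 and 322. Replicate 1 had the opposite order for both: MYOG read 13.4 without and 53 with 4-OHT in PAX3-FKHR-ER, and MYOD1 with 4-OHT read 1216 against 2098 in pK1. The 12-array fit called neither.

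Averaged over the 9 genes after each replicate number's mean was taken out, the members' log2 profile across the 12 arrays was most like those of CLK4 (r = 0.94), ZNF32 (0.94), SLC39A1 (0.92), RRBP1 (0.92), ENDOD1 (0.91) and RGS4 (0.91). These r values describe arrays that share a replicate number or a construct. Of the members' own brightest probe sets TAP1 was closest to the shared profile (r = 0.84), followed by HLA-E (0.71) and CIITA (0.67), and B2M was farthest (0.11). HLA-B (0.64) and HLA-C (0.63) lay between them, near PSMB9 (0.64) and TAP2 (0.63). Each member is part of this profile, which raises its own r. The genes from CLK4 to RGS4 were picked for the highest r among genes outside the members and lists. The members' values therefore cannot be set against theirs.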

How the data were processed

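The authors deposited 1 linear signal intensity per probe set; the submitters' processing notes name GCOS and MAS5 without versions, and the background and scaling settings are not given in the sources used here. Labels' protocols name RNeasy Mini extraction and biotin labelling. Of 22283 probe sets, 68 are controls, and the annotation gives 19065 a single symbol, 1043 several and 2107 none. From the deposited signals, log2(signal + 16) was computed, and the lowest 40% of 22215 non-control probe sets by mean signal (under 36.7) were left out, leaving 13329. limma 3.58.1 (R 4.3.3, eBayes with trend, two-sided) was fitted on 12 arrays without a block, and on replicates 2 and 3 with a block. The block was the replicate number for construct differences. For 4-OHT changes and their difference it was the number within each construct. Same-numbered arrays deviated together: correlations of deviations from group means were 0.70 to 0.85 within a construct and 0.15 to 0.69 between constructs, all above 0.1. Between constructs replicate 2 gave 0.15 without and 0.18 with 4-OHT. The group means included replicate 1, whose departure enters every deviation, so these correlations are no check of the block in replicates 2 and 3. The members and lists were chosen with earlier results of these data known, the choice of replicates 2 and 3 included. The fits were run on simulated data with normal noise and large known changes, for the 4-OHT change in PAX3-FKHR-ER only. The simulation held no departing arrays, so it cannot speak for the construct differences in these data. All members are described; beside them, the text names list genes with the smallest p-values, the markers and the construct's probe sets. The 20 alternatives of the 12-array fit and 14 of the block fit changed normalization, pseudocount, filter, trend, block or 1 array. The number of arrays limits the precision.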

Additional observations from a re-analysis of the deposited data

How the results depend on the processing

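No member was called in any of the 10 comparisons, and this held under every alternative tried except for the 4-OHT change in PAX3-FKHR-ER in the fit of replicates 2 and 3. There, HLA-B 209140_x_at and HLA-C 214459_x_at passed the threshold when any pK1 array was left out. Their log2 changes were -0.45 and -0.46 in each of these fits, as with all 8 arrays. What differed was thus the estimate of error and not the size of the change. With the same kinds of block on 12 arrays 0 members were called in each comparison, and with no block on 8 arrays also 0. Of 1510 alternative values for 90 values of the brightest probe sets, 1375 kept their direction and side of the threshold, 128 changed sign from a value no larger than its SE, 4 passed the threshold (HLA-B) and 3 changed sign from a larger value. Those 3 were of PSMB8, which ranged from -0.67 to 0.050 for the 4-OHT change in pK1 and from -1.16 to 0.19 for the construct difference without 4-OHT when 1 array was left out. With 1 array left out of a group of 2, the lone array is assumed to vary like the other groups. Signals as low as those of PSMB8 on 8 arrays, TAP1 in replicate 1 and the CIITA probe sets under the filter limit what can be read from them. The same holds for CIITA 210925_at in PAX3-FKHR-ER with 4-OHT, at 13.1 and 17.1 in replicates 1 and 3.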
